A study of Mus musculus with 3 samples.

Results

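The genes described here are 40 genes of mitosis: the kinases and cyclins that start it, the proteins of the centromere and kinetochore, the checkpoint that watches over them, the motors of the spindle and the proteins that shape and separate chromosomes. They were chosen by symbol, and every probe whose RefSeq accession belongs to 1 of these symbols was taken, which gave 53 probes among the 28025 named probes for 21153 genes on the array. Of the 40 genes, 39 had a probe whose signal in either channel stood well above background on every array and were tested, among 14710 tested genes.

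The RNA comes from 3 two-colour Agilent arrays, each holding Hopx-/- embryoid bodies grown with XAV939 (12.5 µM) in one channel and Hopx+/- embryoid bodies, with no inhibitor named in their label, in the other. Embryoid bodies are clumps in which embryonic stem cells differentiate. Both kinds were harvested after 8 days under conditions for cardiac differentiation, and the embryonic stem cell lines had been derived from blastocysts of the stated genotypes, on STO feeder cells, and kept on mouse embryonic fibroblast feeders. XAV939 inhibits tankyrase and so lowers Wnt signalling through β-catenin, and Hopx is a small homeodomain protein of the developing heart. The control is heterozygous rather than wild type, and null cultures without inhibitor or heterozygous cultures with it were not analysed here, so the effect of genotype and that of inhibitor cannot be told apart. The design text calls the replicates biological, but the labels do not say whether they came from different lines, and their number limits the precision. In whole cultures, fewer cells of a type and less RNA per cell cannot be told apart.

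Mitosis begins when cyclin-dependent kinase 1, bound to an A or B cyclin, becomes active, and it ends when the anaphase-promoting complex has cyclin B and securin destroyed. In between, condensin packs the chromosomes, the kinetochore couples each centromere to spindle microtubules, and the checkpoint holds anaphase back until every kinetochore is attached. The mRNAs of most of these proteins peak in G2 and mitosis, which is why they are read as marks of dividing cells, and undifferentiated embryonic stem cells are known for fast division. Many of the genes are repressed in resting cells and switched on in G2 through the cell cycle homology region (CHR), a short element near the start of transcription that binds the DREAM and MuvB complexes, often with CCAAT boxes upstream that bind NF-Y.

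Because this shared promoter layout is what ties the genes together apart from their role, it was looked up first. Of the 40 genes, 32 had a RefSeq promoter window (GRCm38.p6, 250 bases before to 50 after the annotated start). Those without an entry were Ccna2, Cdc25c, Aurkb, Incenp, Spc24, Kif20a, Tpx2 and Smc4. The sequences below are 125 bases each, from 100 before to 25 after the start, 5′ to 3′ on the strand of the gene. They belong to the 5 genes with the largest mean ratio and then the 4 genes with a mean ratio nearest to 0 among those 32, so that both ends of the range can be set side by side. Capitals mark TTTGAA or TTCGAA (the CHR) and CCAAT, on either strand (TTCAAA and ATTGG on the other).
Kif11, chr19:37376282-37376406, plus strand: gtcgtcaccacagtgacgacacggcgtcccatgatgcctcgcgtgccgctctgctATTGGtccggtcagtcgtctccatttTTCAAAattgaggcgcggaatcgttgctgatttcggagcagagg
Plk1, chr7:122159335-122159459, plus strand: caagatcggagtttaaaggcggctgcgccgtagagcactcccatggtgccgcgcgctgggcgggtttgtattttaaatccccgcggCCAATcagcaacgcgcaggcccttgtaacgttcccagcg
Espl1, chr15:102296193-102296317, plus strand: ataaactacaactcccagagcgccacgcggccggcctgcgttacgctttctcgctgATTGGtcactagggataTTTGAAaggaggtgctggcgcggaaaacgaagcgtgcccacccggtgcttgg
Ncapd2, chr6:125191562-125191686, minus strand: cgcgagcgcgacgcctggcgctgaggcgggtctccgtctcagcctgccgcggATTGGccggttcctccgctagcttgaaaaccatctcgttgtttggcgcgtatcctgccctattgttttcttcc
Ccnb1, chr13:100786462-100786586, minus strand: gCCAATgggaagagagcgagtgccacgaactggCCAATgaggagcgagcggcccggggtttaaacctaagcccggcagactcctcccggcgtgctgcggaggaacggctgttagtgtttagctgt
Cenpa, chr5:30666786-30666910, plus strand: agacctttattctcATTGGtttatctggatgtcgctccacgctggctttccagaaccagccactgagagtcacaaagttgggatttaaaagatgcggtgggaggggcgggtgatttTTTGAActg
Ccnb2, chr9:70421530-70421654, minus strand: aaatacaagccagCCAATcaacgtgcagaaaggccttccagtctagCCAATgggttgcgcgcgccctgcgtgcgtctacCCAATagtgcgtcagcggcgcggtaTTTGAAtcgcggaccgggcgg
Ndc80, chr17:71526833-71526957, minus strand: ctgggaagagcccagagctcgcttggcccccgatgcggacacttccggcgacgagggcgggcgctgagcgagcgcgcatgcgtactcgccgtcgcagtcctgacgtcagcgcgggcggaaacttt
Cenpe, chr3:135212463-135212587, plus strand: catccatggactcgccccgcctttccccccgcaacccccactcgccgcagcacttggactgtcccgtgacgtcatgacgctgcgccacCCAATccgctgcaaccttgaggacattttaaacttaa

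The windows of Kif11 and Espl1 carried a CHR that begins at -19 and -27 from the start and a CCAAT that begins at -45 and -44, and Plk1 carried its CHR at base 31 after the start, just past the printed stretch. Ccnb2 and Cenpa, with mean ratios near 0, carried the same elements, with a CHR at bases 5 and 17 after the start. Ccnb1 and Cenpe had CCAAT boxes and no CHR letters in this window. Ndc80 had a CHR at base 30 after the start and Ncapd2 had 1 at -123, both also outside the printed stretch. Over the whole 300-base window, 26 of 32 members (81.2%) had a CHR, against 21.7% of the 27025 genes with a promoter in the table and 16.5% of the tested genes with one. A CCAAT was found in 25 of 32 (78.1%, against 41.1% of all genes), and 16 of 32 (50.0%, against 13.3%) had at least 2 of them. The E2F letters TTTGGCGC, TTTCCCGC, TTTGCCGC and TTTCGCGC, on either strand, were found in 2 of 32 (6.25%, against 2.6%), which were Cdk1 and Ncapd2. Among the tested genes with a promoter, 42.5% had a CCAAT, 15.9% had at least 2 of them and 4.38% had the E2F letters. The CHR spellings exclude each other at a position, and no motif contains another. The CHR was present in 14 of the 19 members with a window whose RNA rose and in 12 of the 13 that did not pass the test, so both sets held the letters in most of their windows. A match is a description of the sequence and does not show that a factor was bound.

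**Figure D1:**
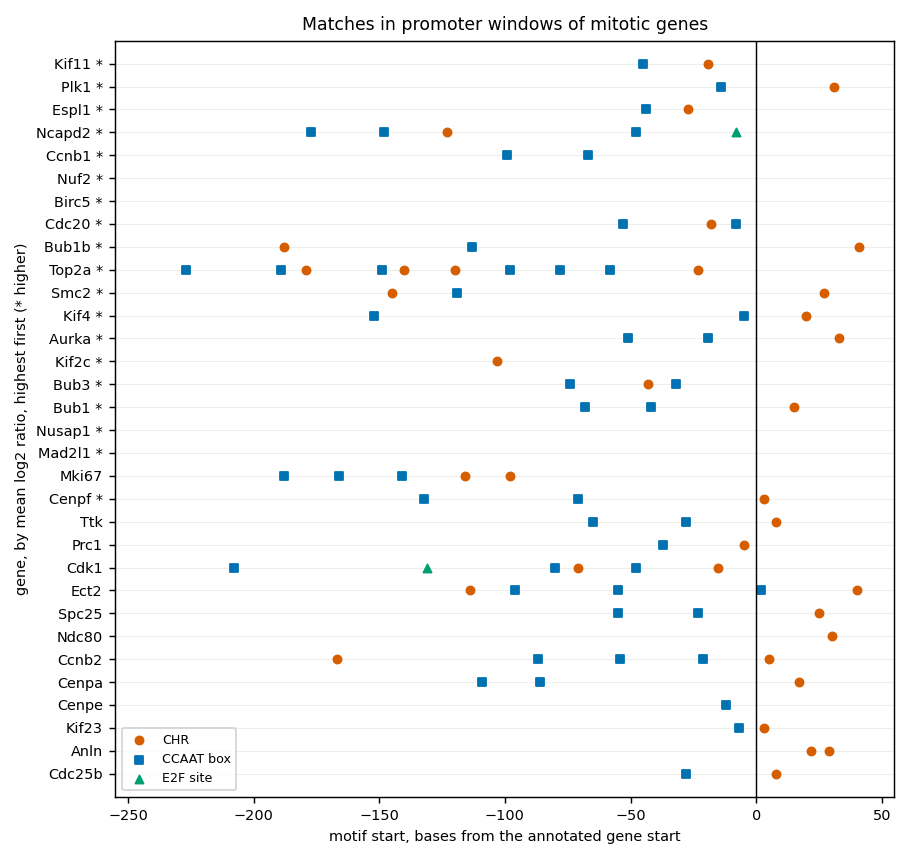
Position of each match to the CHR, CCAAT box and E2F letters (start of the match, in bases from the annotated gene start) in the 32 promoter windows, 1 row per gene ordered by mean log2 ratio; for the 3 genes with more than 1 window the first is drawn. Many CHR matches lie close to the start with CCAAT matches upstream of them, both among genes that rose (asterisk) and among those that did not pass.

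All values that follow are log2 ratios of Hopx-/- with XAV939 over Hopx+/-, given for replicates 1, 2 and 3 in that order and then as mean ± SD (n = 3). "Rose" is used for an adjusted p below 0.05 by limma over all 14710 genes. This direction is only likely. By the labels, Cy5 holds the null RNA on all 3 arrays, yet the raw ratio (Cy5 over Cy3) of replicate 3 ran against the others across spots (r = -0.79 with replicate 1 and -0.89 with replicate 2, against 0.82 between replicates 1 and 2). The ratio of replicate 3 was therefore turned, which is also how the authors' values have it. Hopx, the targeted gene, then read -2.65, -2.75 and -2.73, or -2.71 ± 0.05 (adjusted p = 2.03e-07). With the opposite overall direction every sign below would turn, with 0 members higher and 24 lower. Taken as labelled, replicate 3 cancels the others and limma called no gene (0 at an adjusted p below 0.05, with 13 higher and 27 lower genes at an unadjusted p below 0.05, none of them members).

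Of the 39 tested mitotic genes, 24 rose, none fell and 15 did not pass. Among all tested genes 31.5% rose and 33% fell, or 64.5% in either direction. A mean ratio above 0 was found for 34 members (49.1% of all genes), and a ratio above 0 on all 3 arrays for 24 (38.3% of all genes). The median member lay at 0.36, against -0.01 for all tested genes, and the members ranged from -0.26 (Cdc25b) to 1.28 (Kif11). The changes were modest in size: 3 members, Kif11, Plk1 and Espl1, rose by 1 or more on the log2 scale, as did 7.78% of all genes, and none fell by that much (9.56% of all genes). The channel signals of the null cultures lay above those of the heterozygous cultures without overlap for 23 members (33.4% of all genes), and below them for Cdc25b alone (34.6% of all genes). The list was chosen with earlier results of these data known, and counts stand here in place of a test of the list.

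Markers of other cell types moved in the same cultures, where 31.5% of all tested genes rose and 33% fell. Of 12 genes of undifferentiated pluripotent cells 10 rose and 1 fell (their summed signal was 66970 to 76315 in the null and 41206 to 45856 in the heterozygous cultures). All 12 cardiomyocyte genes fell (71341 to 82477 against 262564 to 292072), as did all 12 endoderm genes (7738 to 14364 against 167083 to 181161). Of 10 fibroblast and feeder cell genes 6 fell and 1, Thy1, rose (19883 to 30444 against 38133 to 53930). None of these markers was below the background limit on every array in either group. Pou5f1, the gene of Oct4 (2.50 ± 0.27), and Fgf4 (2.31 ± 0.44) rose most among the pluripotency genes while Zfp42 fell (-1.19 ± 0.23). The largest falls were Myl3 (-2.70 ± 0.07) and Myh7 (-2.63 ± 0.36) for cardiomyocytes, Cubn (-5.54 ± 0.61) and Rbp4 (-5.18 ± 0.36) for endoderm, and Col1a1 (-2.81 ± 0.38) and Pdgfra (-2.49 ± 0.40) for fibroblasts, against 0.97 ± 0.06 for Thy1. The part of these cells in the mitotic ratios was not tested.

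**Figure D2:**
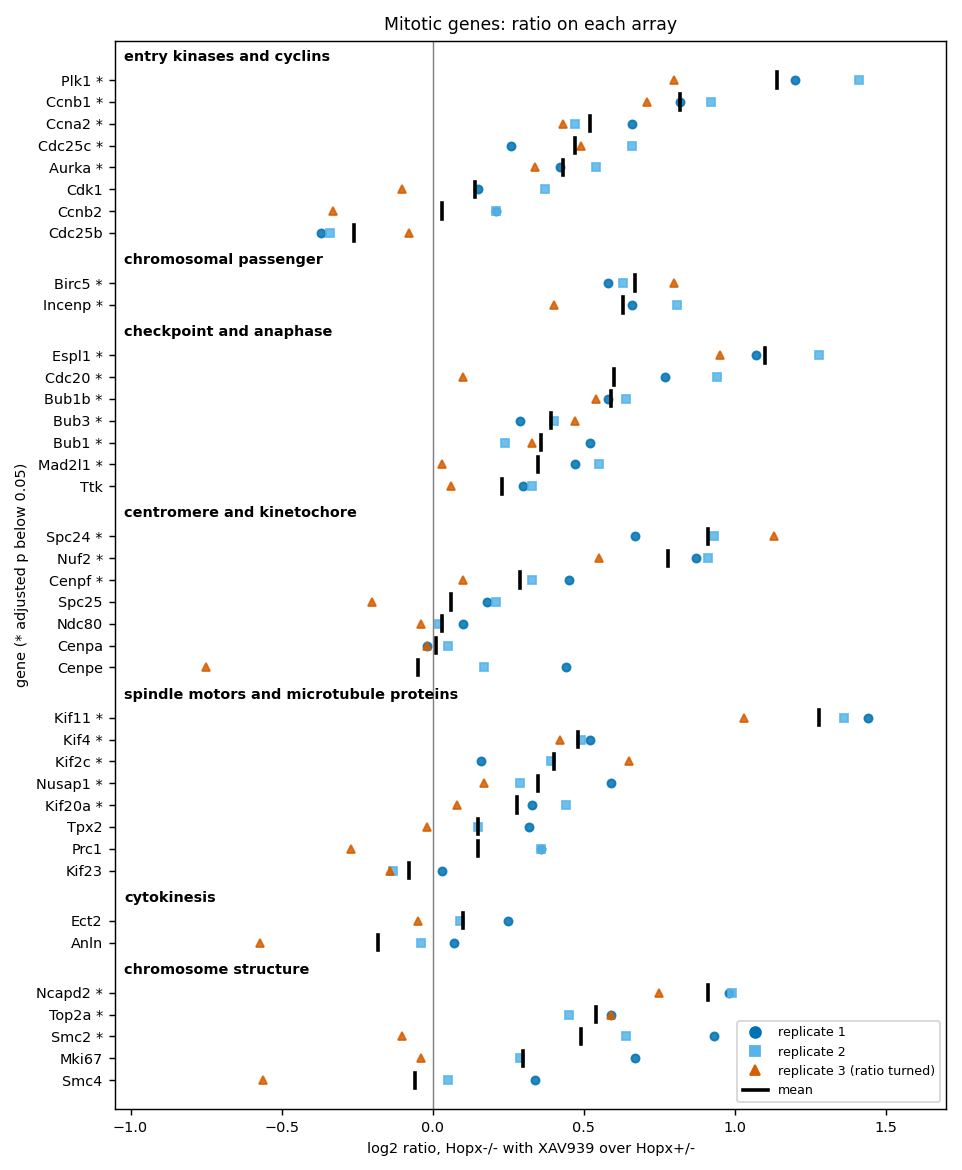
Log2 ratio (null with XAV939 over heterozygous) of the 39 tested mitotic genes on each of the 3 arrays, grouped by role; the black bar is the mean and an asterisk marks an adjusted p below 0.05. Kif11, Plk1 and Espl1 lie furthest to the right, and the triangles of replicate 3 mostly lie left of the other replicates.

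Among the kinases and cyclins of mitotic entry, 5 of 8 rose, where 31.5% of all tested genes did. The same share stands beside each count by role below. Plk1, the polo-like kinase of centrosomes, kinetochores and cytokinesis, had log2 signals of 14.68, 14.79 and 14.46 in the null and of 13.48, 13.37 and 13.66 in the heterozygous cultures. The null signals were all above the heterozygous ones, and the ratios of 1.20, 1.41 and 0.80 gave 1.14 ± 0.31, a 2.2-fold rise (adjusted p = 7.44e-05). Ccnb1, cyclin B1, stood at 14.05, 14.24 and 14.02 against 13.24, 13.31 and 13.31, again with no overlap. Its ratios were 0.82, 0.92 and 0.71 (0.82 ± 0.11, 1.76-fold, adjusted p = 0.00012), and its 3 probes all rose, at 0.82, 0.68 and 0.63. A transcribed pseudogene of Ccnb1 is annotated, and whether its RNA adds to these probes was not tested.

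Ccna2, cyclin A2, which acts from S phase into prophase, gave 0.66, 0.47 and 0.43 (0.52 ± 0.12). Aurka, the Aurora kinase of centrosomes, gave 0.42, 0.54 and 0.34 (0.43 ± 0.10), a narrow rise of 1.35-fold. Cdc25c, a phosphatase that activates Cdk1, gave 0.26, 0.66 and 0.49 (0.47 ± 0.20). Its relative Cdc25b, which acts earlier at centrosomes, was the only member with a negative ratio on all 3 arrays, at -0.37, -0.34 and -0.08 (-0.26 ± 0.16, adjusted p = 0.0555), and did not pass. Cdk1 itself, the kinase the others act on, gave 0.15, 0.37 and -0.10 (0.14 ± 0.24, adjusted p = 0.326). Of its 2 dimmer probes 1 did not pass (0.18 ± 0.17) and the other rose, at 0.53, 0.30 and 0.36 (0.40 ± 0.12, adjusted p = 0.00852 in the fit over 24384 probes). The probe that rose had low log2 signals, at 6.95, 6.78 and 6.75 in the null and 6.42, 6.48 and 6.39 in the heterozygous cultures. Ccnb2, cyclin B2, gave 0.21, 0.21 and -0.33 (0.03 ± 0.31, adjusted p = 0.845). So the B cyclins were apart, with the brightest Ccnb1 probe above 0.7 on every array and Ccnb2 on both sides of 0. The dimmer Ccnb1 probes were less even, at 0.70, 0.98 and 0.36 and at 0.36, 0.91 and 0.63. The difference between the B cyclins was not tested.

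The chromosomal passenger complex corrects wrong attachments and then guides cytokinesis. Both of its measured members rose. Birc5, or survivin, gave 0.58, 0.63 and 0.80 (0.67 ± 0.11, 1.59-fold), with 3 probes that all rose (0.67, 0.60 and 0.59). Incenp, the scaffold, gave 0.66, 0.81 and 0.40 (0.63 ± 0.21, 1.54-fold), with 0.71 from a second probe. The kinase of the complex, Aurkb, was not well above background in either group on any array (0 of 3 in both) and was not tested. Its germline relative Aurkc was measured on all arrays and rose, at 0.44 ± 0.16 (adjusted p = 0.00608), but missed the threshold when replicate 1 (0.36) or replicate 2 (0.43) was left out, when marked local backgrounds were kept (0.17) and under median centring (0.42). Its adjusted p ranged up to 0.197 over these 4 settings.

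Of the 7 checkpoint and anaphase genes 6 rose. Espl1, separase, the protease that cuts cohesin, had log2 signals of 10.84, 10.96 and 10.67 in the null and 9.77, 9.68 and 9.72 in the heterozygous cultures, with no overlap. Its ratios of 1.07, 1.28 and 0.95 gave 1.10 ± 0.17, a 2.14-fold rise (adjusted p = 3.07e-05). Bub1b, or BubR1, part of the mitotic checkpoint complex, was the most even of the group, at 0.58, 0.64 and 0.54 (0.59 ± 0.05). Bub3, its partner, gave 0.29, 0.40 and 0.47 (0.39 ± 0.09), and the checkpoint kinase gene Bub1 0.52, 0.24 and 0.33 (0.36 ± 0.14, from a probe with 10 spots per array). These 3 Bub genes were positive on every array.

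Cdc20, which the checkpoint holds back from the anaphase-promoting complex, gave 0.77, 0.94 and 0.10 (0.60 ± 0.44, adjusted p = 0.00835). Replicate 3 was far below the others, and the null signals (15.32, 15.37 and 14.95) stayed just above the heterozygous ones (14.55, 14.43 and 14.85). Mad2l1, the checkpoint protein Mad2, gave 0.47, 0.55 and 0.03 (0.35 ± 0.28, adjusted p = 0.0332). It did not pass under 8 of the 14 alternative settings run with replicate 3 turned, among them the mean over its probes (0.05, adjusted p = 0.651). Its probes disagreed: of 2 dimmer ones, both measured on all arrays, 1 gave 0.10 ± 0.17 and did not pass and the other fell, at -0.30 ± 0.14 (adjusted p = 0.0335 in the fit over 24384 probes). Ttk, the kinase Mps1 that starts the checkpoint, was positive on all arrays, at 0.30, 0.33 and 0.06 (0.23 ± 0.15, adjusted p = 0.0851), and did not pass.

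The centromere and kinetochore genes were the most divided group, with 3 of 7 that rose and 4 with a mean within 0.1 of 0. The NDC80 complex, the microtubule hook of the kinetochore, has 4 subunits, and 2 of them rose. Spc24 gave 0.67, 0.93 and 1.13 (0.91 ± 0.23, 1.88-fold, adjusted p = 0.00015), with signals of 10.58, 10.39 and 10.81 against 9.91, 9.46 and 9.68. Nuf2 gave 0.87, 0.91 and 0.55 (0.78 ± 0.19, 1.71-fold, adjusted p = 0.000289). Their partners in the same complex lay near 0: Ndc80 at 0.10, 0.02 and -0.04 (0.03 ± 0.07, adjusted p = 0.829) and Spc25 at 0.18, 0.21 and -0.20 (0.06 ± 0.23, adjusted p = 0.669). The difference between subunits was not tested. A second Nuf2 probe went the other way, at -0.24, -0.47 and -0.16 (lower in the fit over probes, adjusted p = 0.04). In the null cultures this probe was not well above background on any array, so its fall is given as at least 1.19-fold. This bound sets the mean signal of the brighter group against, on each array, the higher of the dim probe's own signal and the lowest signal well above background.

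Cenpa, the histone H3 variant that marks the centromere, gave -0.02, 0.05 and -0.02 (0.01 ± 0.04, adjusted p = 0.963), with the smallest SD of the 39 tested members. Cenpf, a protein of the outer kinetochore, rose, at 0.45, 0.33 and 0.10 (0.29 ± 0.18, adjusted p = 0.0408). Its log2 signals were low, at 7.02, 6.96 and 6.72 in the null and 6.57, 6.63 and 6.62 in the heterozygous cultures. They were well above background on all arrays, but not far from those of the untested Aurkb (6.10, 6.26 and 6.21 in the null). Cenpf did not pass under 6 of the 14 alternatives: with marked local backgrounds kept (0.07, adjusted p = 0.494), median centring (0.29), the authors' values (0.20), the slide as a fixed block (0.33), or without replicate 1 (0.21) or replicate 2 (0.27). Cenpe, the kinesin that moves chromosomes to the metaphase plate, had the widest spread of all members, at 0.44, 0.17 and -0.75 (-0.05 ± 0.62).

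Of the 8 spindle motor and microtubule genes 5 rose. Kif11, the kinesin-5 motor Eg5 that pushes spindle poles apart, had the largest ratio of all members. Its log2 signals were 10.88, 10.73 and 10.88 in the null and 9.44, 9.37 and 9.85 in the heterozygous cultures, far from overlapping. The ratios of 1.44, 1.36 and 1.03 gave 1.28 ± 0.22, a 2.42-fold rise (adjusted p = 1.76e-05). Kif4, the chromokinesin, gave 0.52, 0.49 and 0.42 (0.48 ± 0.05), although a transcribed pseudogene of it is annotated. Kif2c, the microtubule-depolymerizing kinesin MCAK, gave 0.16, 0.39 and 0.65 (0.40 ± 0.24), and a second probe did not pass (0.37 ± 0.41).

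Nusap1, which bundles spindle microtubules, gave 0.59, 0.29 and 0.17 (0.35 ± 0.21), and Kif20a, a kinesin of the central spindle, gave 0.33, 0.44 and 0.08 (0.28 ± 0.18, adjusted p = 0.0459). Both rose by less than 1.3-fold, and Kif20a did not pass under 10 of the 14 alternatives (highest adjusted p = 0.33). Central spindle genes that did not pass were Prc1, which crosslinks the midzone, at 0.36, 0.36 and -0.27 (0.15 ± 0.36), and Kif23, the kinesin of centralspindlin, at 0.03, -0.13 and -0.14 (-0.08 ± 0.09). Tpx2, the activator of Aurora A, showed a split between probes. Its bright probe gave 0.32, 0.15 and -0.02 (0.15 ± 0.17, adjusted p = 0.263 over probes) and a dimmer probe annotated to another RefSeq transcript of the gene gave 1.04, 1.20 and 1.06 (1.10 ± 0.09, adjusted p = 2.63e-05 over probes). Every ratio of the dimmer probe was above every ratio of the bright one, and whether the transcripts differ was not tested.

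Neither cytokinesis gene passed. Anln, anillin of the contractile ring, gave 0.07, -0.04 and -0.57 (-0.18 ± 0.34), and Ect2, which activates RhoA at the equator, 0.25, 0.09 and -0.05 (0.10 ± 0.15).

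Of the 5 chromosome structure genes 3 rose. Ncapd2, a subunit of condensin I, had signals of 14.84, 14.67 and 14.70 in the null and 13.85, 13.68 and 13.94 in the heterozygous cultures. The ratios of 0.98, 0.99 and 0.75 gave 0.91 ± 0.13, a 1.88-fold rise (adjusted p = 7.49e-05). Top2a, topoisomerase IIα, gave 0.59, 0.45 and 0.59 (0.54 ± 0.08). The ATPase pair at the core of condensin was less even. Smc2 gave 0.93, 0.64 and -0.10 (0.49 ± 0.53, adjusted p = 0.0362) and was the only member called higher with a negative ratio on an array. It did not pass under 9 of the 14 alternatives, with values from 0.27 to 0.79 over all 14. Smc4 gave 0.34, 0.05 and -0.56 (-0.06 ± 0.46) and did not pass. Mki67, the gene of the proliferation marker Ki-67, gave 0.67, 0.29 and -0.04 (0.30 ± 0.36, adjusted p = 0.0822), and its second probe followed it closely (0.73, 0.28 and 0.02), neither of them passing.

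**Figure D3:**
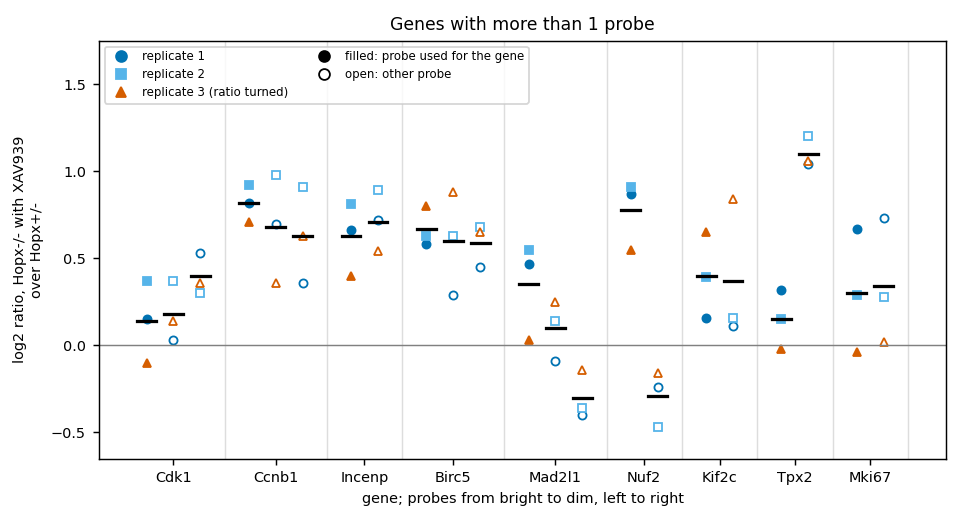
Log2 ratio on each array for the 9 mitotic genes with more than 1 probe; filled symbols are the probe that stands for the gene, open symbols the others, and the black bar is the mean. Probes of Ccnb1, Incenp, Birc5 and Mki67 lie together, while those of Mad2l1, Nuf2 and Tpx2 lie apart.

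Over all probes of the list, 31 of 52 tested rose and 2 fell (Mad2l1 and Nuf2), against 28.7% and 31.4% of the 24384 tested probes. Probes of 1 gene share their RNA and are not replicates.

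Replicate 3 read lower than the others for most of these genes. The median member was 0.45, 0.40 and 0.10 on replicates 1, 2 and 3, while the median of all tested genes stayed within 0.02 of 0 on each. On replicate 3, 24 of 39 members had a ratio above 0 (48.6% of all genes), against 37 and 36 on replicates 1 and 2. The ratio on replicate 3 was below that on both other arrays for 31 of 39 members, against 42.7% of all genes. A positive ratio on replicates 1 and 2 with a negative one on replicate 3 was seen for 11 of 39 members, against 6.87% of all genes. These 11 were Cdk1, Ccnb2, Cenpe, Ndc80, Spc25, Tpx2, Prc1, Ect2, Smc2, Smc4 and Mki67. The largest gaps between the mean of replicates 1 and 2 and replicate 3 were those of Cenpe (1.05), Smc2 (0.89), Cdc20 (0.76) and Smc4 (0.76). Birc5, Spc24, Kif2c, Bub3 and Cdc25b read higher on replicate 3 than on both others. Replicate 3 is also the only array whose ratio was turned. If its dyes were swapped, which the labels do not say, replicate and dye cannot be told apart.

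Replicate 1 lay alone on the first slide, where the median member was 0.45, and replicates 2 and 3 on the second, where the median of their mean was 0.28. With the slide as a fixed block 23 members rose (28.7% of all genes) and none fell (30% of all genes).

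**Figure D4:**
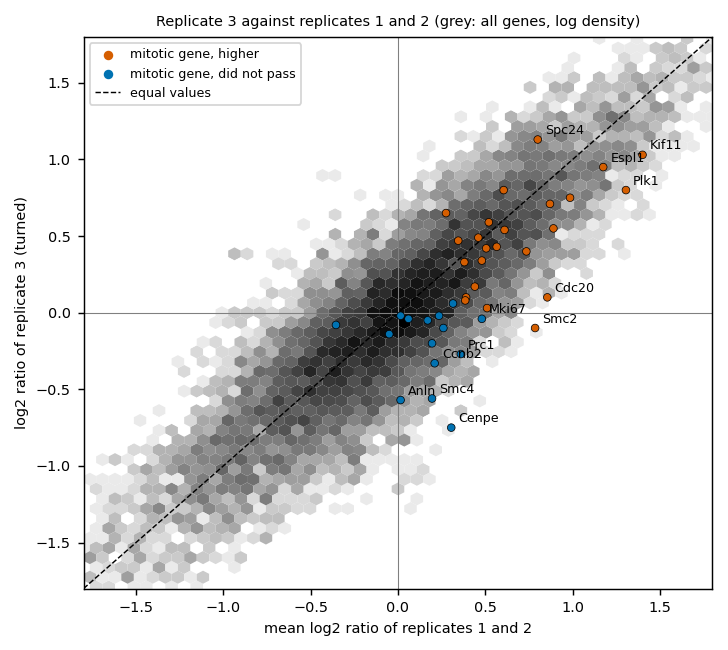
Log2 ratio of replicate 3 against the mean of replicates 1 and 2 for the 39 mitotic genes (coloured points) over the density of all tested genes (grey), with the line of equal values. Most of the mitotic genes lie below the line, Cenpe, Smc2, Smc4 and Cdc20 furthest, and Spc24 lies above it.

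Which genes were called depended on the arrays used, and so did the share of all tested genes that rose. This share was 31.5% with all 3 arrays, 35.9% without replicate 3, 23.8% without replicate 2 and 26.4% without replicate 1. Without replicate 3, 31 members rose and 1 fell. Those that then passed were Cdk1 (0.26, adjusted p = 0.0315), Ccnb2 (0.21, adjusted p = 0.0497), Ttk (0.31, adjusted p = 0.0087), Cenpe (0.31, adjusted p = 0.0177), Tpx2 (0.23, adjusted p = 0.0426), Prc1 (0.36, adjusted p = 0.00435) and Mki67 (0.48, adjusted p = 0.00312), and Cdc25b as lower (-0.36, adjusted p = 0.00446). Without replicate 2, 14 rose, and those lost were Cdc25c (0.37), Aurka (0.38), Bub3 (0.38), Mad2l1 (0.25), Cdc20 (0.44), Cenpf (0.27), Kif20a (0.21), Kif2c (0.41), Nusap1 (0.38) and Smc2 (0.41). Without replicate 1, 18 rose, and Bub1 (0.28), Mad2l1 (0.29), Cenpf (0.21), Kif20a (0.26), Nusap1 (0.23) and Smc2 (0.27) were lost. Of the 24 members that rose, 12 missed the threshold under at least 1 of the 14 alternatives, and 8 under at least 4. These 8 were Kif20a, Smc2, Mad2l1, Cenpf, Cdc25c, Bub1, Kif2c and Nusap1. The other 12 passed under each of the 14: Ccna2, Ccnb1, Plk1, Incenp, Birc5, Bub1b, Espl1, Nuf2, Spc24, Kif11, Top2a and Ncapd2. Nuf2 ranged most among these, from 0.24 as the mean of its probes to 0.91. The same counts were not made over all tested genes, so they do not set the members apart from other genes that rose.

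Other genes of mitosis were taken from general knowledge in 5 lists with 124 entries, chosen like the members with earlier results known. Of 122 tested, 69 rose (56.6%) and 9 fell (7.38%), with a median of 0.36. Among all tested genes 31.5% rose, 33% fell and the median was -0.01. These shares stand beside each list count below. Of 34 tested kinetochore and checkpoint genes 22 rose and none fell (median 0.43). Cenpu (1.64 ± 0.30, 3.11-fold) and Cenpn (1.24 ± 0.17), both of the inner kinetochore network, rose most. Of 16 mitotic kinases and regulators 10 rose and 3 fell (median 0.49). The kinase gene Nek2 (1.13 ± 0.09) and Gmnn, geminin, which blocks a second round of replication (0.95 ± 0.16), rose most, while Bora, a cofactor of Aurora A (-0.61 ± 0.08), and the cyclin F gene Ccnf (-0.52 ± 0.10) fell most. Bora (-0.53) and Ccnf (-0.24) did not pass with median centring in place of loess, nor Bora with marked local backgrounds kept (-0.41).

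Of 18 condensin and cohesin genes 9 rose and none fell (median 0.36), led by Cdca5, or sororin, which protects cohesion (1.41 ± 0.12, 2.66-fold), and the acetyltransferase gene Esco1 (0.79 ± 0.12, but 0.08 as the mean of its probes, which did not pass). Of 35 spindle, centrosome and cytokinesis genes 20 rose and 4 fell (median 0.36). Haus4, of the augmin complex (1.42 ± 0.16), and Pimreg (1.12 ± 0.06) rose most. Cep55, of the midbody (-0.48 ± 0.25), and the minus-end motor gene Kifc1 (-0.43 ± 0.26) fell most, and neither passed without replicate 2 (-0.37 and -0.29), with marked local backgrounds kept (-0.18 and -0.34) or with median centring (-0.49 and -0.18). Cep55 also missed the threshold with the authors' processed values (-0.35), as the mean of its probes (-0.20) and on separate channels with no replicate block (-0.48). Kifc1 also missed it with the Feature Extraction log ratio (-0.34).

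The anaphase-promoting complex and its regulators stood closer to all genes. Of 19 tested, 8 rose (42.1%) and 2 fell (10.5%), with a median of 0.15. Without replicate 1 or without replicate 2 only 4 rose, against 26.4% and 23.8% of all genes. Fbxo5, or Emi1, an inhibitor of the complex (1.11 ± 0.05), and Anapc15 (0.85 ± 0.22) rose most. The subunit gene Anapc2 (-0.45 ± 0.08) and Pttg1, securin (-0.17, -0.22 and -0.75; -0.38 ± 0.32), fell. Without replicate 2 both missed the threshold (-0.40 and -0.46), as did Pttg1 without replicate 3 (-0.19), and with median centring they read -0.14 and -0.06. Pttg1 also missed it with marked local backgrounds kept (-0.35), with a half-floored background (-0.37) and with the authors' processed values (-0.40). The same held for the mean of its probes (-0.17) and for the slide as a fixed block (-0.33). Pttg1 thus read below 0 on the arrays where Espl1, whose product securin inhibits, read above 0.

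Among 22 regulators of cell cycle transcription 13 rose and 2 fell (median 0.61). The list holds E2F and RB family genes, the genes of NF-Y, and those of the MuvB complex and its partners. Of the MuvB complex and its partners, Mybl2 (0.12), Lin9 (0.19), Lin37 (0.09), Lin52 (0.24) and Lin54 (0.07) did not pass. Rbbp4 (0.59) and Foxm1 (0.41) rose. Of the NF-Y genes, Nfyb (1.05) and Nfyc (0.97) rose and Nfya (0.08) did not pass. E2f4 (1.02) and Rbl1 (0.76) rose as well, and E2f5 (0.16) did not pass. Tfdp1, the partner of E2F factors (1.48 ± 0.40), and E2f1 (1.45 ± 0.15) rose most. Rb1 fell (-0.94 ± 0.13), as did Rbl2, the p130 subunit of DREAM (-0.37 ± 0.22), which did not pass without replicate 2 (-0.34), with marked local backgrounds kept (-0.21), with median centring (-0.39), with the authors' processed values (-0.28) or with the slide as a fixed block (-0.31). Germline relatives gave no common direction: of 5 tested, Rec8 (0.87 ± 0.15) and Aurkc rose and Stag3 fell (-1.19 ± 0.07).

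**Figure D5:**
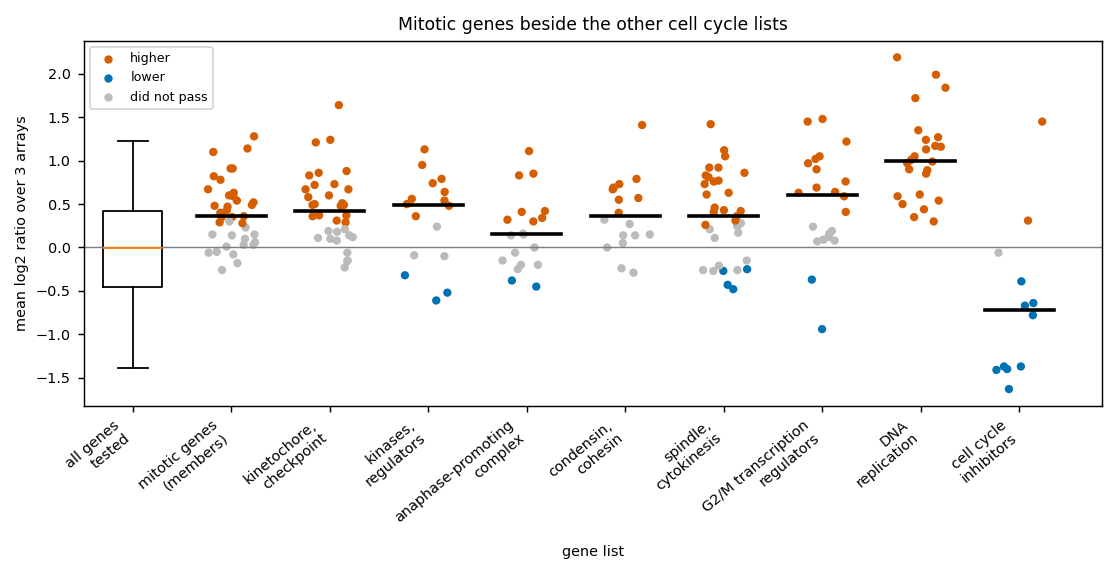
Mean log2 ratio over the 3 arrays for each tested gene of the mitotic list and of the other cell cycle lists; the black bar is the list median, and the box gives the quartiles of all tested genes with whiskers from the 5th to the 95th percentile. The members centre at 0.36, DNA replication at 1.00, and cell cycle inhibitors centre at -0.73.

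Genes of DNA replication, an S phase list, rose more widely. All 24 rose, with a median of 1.00 and the lowest at 0.30, and the median was 1.01, 1.14 and 0.91 on replicates 1, 2 and 3, against 0.45, 0.40 and 0.10 for the mitotic genes. Mcm3, of the replicative helicase, was highest (2.19 ± 0.26, 4.56-fold), followed by Gins1 (1.99 ± 0.13). The median was above that of the mitotic genes on each array, but the difference between lists was not tested. Of 12 cell cycle inhibitors and antiproliferative genes 9 fell and 2 rose (median -0.73). Cdkn1a, p21 (-1.63 ± 0.09, 3.1-fold lower), and Btg1 (-1.41 ± 0.28) fell most, and Cdkn2b, p15 (1.45 ± 0.19), rose. Gadd45a rose (0.31 ± 0.06), and did not pass without replicate 1 (0.33), without replicate 2 (0.28), with marked local backgrounds kept (0.17) or with median centring (0.33). Nor did it pass with the authors' processed values (0.26) or with the slide as a fixed block (0.30).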

How the data were processed

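RNA levels were read from 3 two-colour Agilent arrays. The spot and local background medians used here are intensity values as deposited, extracted by the authors with Agilent Feature Extraction (version 11.5.1.1 per the file headers, 8.5.1.1 per the submitters' processing notes) on a grid annotated on mm9. The deposited processed signals are intensity values that Feature Extraction had background-subtracted and dye-normalized, and the log ratio they deposited is a log10 value with Cy5 as numerator. The authors' own value table was read as log2 ratios. Its normalization and centring are not given in the sources used here, and its columns had medians of 0.086, -0.08 and 0.053. These values correlated at 0.885, 0.945 and -0.94 with the log2 scanner ratios, and replicate 3 was turned for that reason. The deposited marks for saturated, outlying and well above background spots were used as given.

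From the medians, local backgrounds marked as outliers were set to the median of the unmarked ones in that channel, followed by normexp (offset 50) and loess within arrays in limma 3.58.1 (R 4.3.3), with control and outlier spots at weight 0. Probes were named through RefSeq accessions (28025 of 39429 matched 1 symbol, 11404 none). A probe was tested if either channel was well above background on every array, and a gene took its brightest tested probe. limma compared the mean ratio with 0 (8.66 degrees of freedom, 6.66 from the prior, with Benjamini-Hochberg over 14710 genes and a threshold of 0.05). The p-values measure the spread between these 3 arrays, with the variance of each gene drawn toward that of all genes. Smc2 (SD 0.53) was thus tested with a standard error of 0.18 and Cdc20 (SD 0.44) with 0.16. Both are smaller than their own 3 ratios alone would give. No member was fitted on fewer than 3 arrays. The fit was also run on simulated data with independent errors for each gene and few changed genes. Those data lacked the shared shift of the members on replicate 3 and the wide share of changed genes found here. Channel signals are log2 values after loess and Aquantile. The share of spots well above background was 61.4% to 68% in Cy3 and 56.6% to 66.6% in Cy5, and no member probe was saturated. Every member is named, and of each other list at most the 2 highest and 2 lowest called genes. Genes of the MuvB complex and its partners, the NF-Y genes, Rbl1, E2f4 and E2f5 are named as well. Members, lists and tests were chosen with earlier results of these data known. Alternatives covered background, normalization, filter, probe choice, slide, array direction, separate channels and leaving out each replicate.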

Additional observations from a re-analysis of the deposited data

How the results depend on the processing

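The counts of 24 higher and 0 lower members kept within 1.5 times under most alternatives. With marked local backgrounds kept, 15 members rose, and the genes called numbered 4929 (2669 higher and 2260 lower, against 9486, 4636 and 4850). Median centring instead of loess left 15 members that rose, the median member was 0.58, that of all genes 0.10, and 5062 genes were called (3039 higher, 60% of calls against 48.9%, and 2023 lower). With the authors' processed values 15 members rose (23.3% of all genes). With the mean over probes 25 rose (31.9% of all genes) and 1 fell (33.5% of all genes). With replicate 3 as labelled, 0 members and 0 genes were called in either direction. Leaving out each replicate in turn gave 14 to 31 members higher and 0 to 1 lower. Among all genes 23.8% to 35.9% were then higher and 25.2% to 36.3% lower.

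Some genes changed sign, without passing the test there unless said: with median centring Cenpe (0.26), Kif23 (0.09), Anln (0.12) and Smc4 (0.23); with the Feature Extraction log ratio Kif23 (0.01); with the authors' values Ccnb2 (-0.01) and Ndc80 (-0.07); with the slide as a fixed block Cenpe (0.08) and Smc4 (0.04); with replicate 3 as labelled Cenpe (0.45), Kif23 (0.01), Kif2c (-0.03), Anln (0.20), Smc4 (0.32) and Pttg1 (0.12). Leave-one-out ranges were -0.06 to 0.21 for Ccnb2 (which passed without replicate 3), -0.01 to 0.06 for Ndc80, -0.02 to 0.02 for Cenpa, -0.01 to 0.19 for Spc25, -0.29 to 0.31 for Cenpe (which passed without replicate 3), -0.30 to 0.01 for Anln and -0.26 to 0.19 for Smc4. The causes were not tested. No paired analysis beyond the arrays was possible because each ratio already pairs the cultures of 1 array. With no replicate block, on separate channels, 22 members rose (30.9% of all genes) and 0 fell (32.2% of all genes). The slide as a random block could not be fitted, since no gene gave a within-slide correlation. Only 3 arrays limit the precision, and Aurkb has no usable value.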
